A study of Drosophila melanogaster with 73 samples.

Results

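Mitochondrially encoded transcripts were examined as every gene whose FlyBase symbol starts with mt:, in count tables of guts and abdominal fat bodies from adult female Drosophila melanogaster. Of 38 such genes in the annotation, 33 had counts in both tables, which hold 10366 gut genes and 11069 fat body genes. These 33 comprised 13 mRNAs (7 for complex I, 1 for complex III, 3 for complex IV and 2 for ATP synthase), 2 ribosomal RNAs (lrRNA and srRNA) and 18 tRNAs. The origin region and the tRNAs Glu-TTC, Ile-GAT, Gln-TTG and Val-TAC had no entry in the tables used here.

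Flies were mated females of an outbred, Wolbachia-free background, and all carried the S106 GeneSwitch driver, which acts in gut and fat body when the steroid RU486 is fed. The driver was combined with UAS transgenes for Foxo (the forkhead factor active when insulin signalling is low), AopACT (the ETS repressor Aop in an always-active form), PntP1 (an isoform of the ETS activator Pnt that needs no upstream signal), or each combination of these 3, which gave 7 genotypes. After 48 h of mating the females received 200 µM RU486 (induced) or no RU486 (uninduced) for 6 days. Libraries were made from pooled organs, 36 from guts (17 induced, 19 uninduced) and 34 from fat bodies (18 induced, 16 uninduced), with 1 to 3 libraries in a group. The fat body samples were abdomens left after removal of gut and reproductive organs, so they also hold cuticle-associated tissue, and a change in cell numbers cannot be told apart from a change in RNA per cell. P-values therefore measure the spread between these pools.

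The mitochondrial genome encodes core subunits of the respiratory chain together with the rRNAs and tRNAs that translate them, while all other mitochondrial proteins are made from nuclear genes and imported. Both strands are transcribed as long precursors, which are cut where tRNAs lie between the coding regions and then polyadenylated. Their level therefore reflects the number of mitochondrial genomes as well as transcription, processing and decay of the RNA. RNA was captured here by its poly(A) tail, so that each level is that of the molecules retained by this step.

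Total counts lay between 1598120 and 6145550 per gut library and between 1138812 and 8257766 per fat body library. Markers matched the tissue labels: all 6 gut markers tested were higher in guts, and 5 of 6 fat body markers were higher in fat bodies (edgeR adjusted p under 0.1), with medians of 7086 CPM (counts scaled to a common library total) in guts against 22.9 CPM in fat bodies for the digestive protease gene alphaTry. Between libraries alphaTry ranged from 520 to 13283 CPM in guts and from 1.91 to 619 CPM in fat bodies, so the ranges overlapped. Ovary markers were also counted in fat bodies, with medians from 1.32 CPM for Cp16 to 493 CPM for Vm26Aa. Vm26Aa ranged from 1.91 to 2072 CPM between fat body libraries, and its gut median was 7.19 CPM. A fat body library labelled Foxo+PntP1 uninduced replicate 1 had 109 CPM of pnt, within the 53.0 to 203 CPM of the 10 induced fat body libraries with PntP1 and above the 7.54 to 21.8 CPM of the other 8 uninduced ones. Its part in the fat body values is given beside the share tests, the composition, the block comparison and the correlations. The numbers 02 and 05 name Foxo+PntP1 induced replicate 1 and Foxo uninduced replicate 1 in guts, whereas 02 names Foxo uninduced replicate 1 in fat bodies, so that a label may be wrong in 1 tissue. Fat body library 02 had 12.5 CPM of pnt, below the 53.0 to 203 CPM of induced fat bodies with PntP1. Levels of pnt in guts are not given here. The deposited tables assign the libraries to experimental blocks A, C and D, with 11, 11 and 14 gut libraries and 10, 10 and 14 fat body libraries.

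Mitochondrially encoded transcripts took a variable part of the counts in both tissues. Their share lay between 3.13% and 24.9% in guts (median 6.80%) and between 2.98% and 15.4% in fat bodies (median 6.39%). The widest Wilson 95% interval of a library spanned 0.123 percentage points in guts and 0.124 in fat bodies, for counting error only. Above 20% lay a pair of gut libraries, Foxo+PntP1 induced replicate 2 from block C with 24.9% (559980 of 2250940 counts, 95% interval 24.8 to 24.9%) and Foxo+AopACT+PntP1 uninduced replicate 3 from block D with 24.9% (475948 of 1909533 counts, 24.9 to 25.0%). The next gut library had 13.9%, and 6 gut libraries were above 10%.

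Guts carrying Foxo alone had shares of 9.26, 5.24 and 7.41% after induction and of 8.73, 5.42 and 5.69% without it. The 8.73% is library 05. Those with AopACT had 5.40 and 6.95% against 6.55, 8.29 and 4.39%. Those with PntP1 had 7.55 and 5.49% against 6.30, 13.7 and 3.84%. In each of these 3 genotypes the induced libraries overlapped the uninduced ones. Foxo+AopACT guts gave 7.28 and 5.88% when induced and 6.85, 3.13 and 8.48% when uninduced. Foxo+PntP1 guts gave 6.74, 24.9 and 6.71% when induced, beside a lone uninduced library of 4.28%, the 6.74% being library 02. All 3 induced Foxo+PntP1 libraries thus lay above that library. AopACT+PntP1 guts gave 8.96 and 8.83% when induced and 13.9, 12.1 and 3.88% when uninduced. Guts with all 3 transgenes gave 7.32, 10.0 and 5.46% when induced and 4.35, 6.51 and 24.9% when uninduced. The induced libraries of both genotypes lay within the uninduced range.

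In fat bodies, Foxo gave 11.5, 4.94 and 7.76% when induced and 8.35, 5.46 and 4.79% when uninduced, the 8.35% being library 02. AopACT gave 8.56 and 5.07% against 11.9 and 3.62%, and PntP1 gave 11.3 and 5.68% against 8.81 and 5.59%. The groups overlapped in all 3. Foxo+AopACT fat bodies had 13.0, 6.46 and 6.32% when induced and 5.98 and 6.87% when uninduced. Foxo+PntP1 fat bodies had 8.64 and 3.29% when induced and 8.31, 12.1 and 3.57% when uninduced, where the 8.31% is the library whose pnt level went against its label. AopACT+PntP1 fat bodies had the highest share of the tissue, with 15.4, 5.55 and 5.31% when induced and 13.3 and 4.38% when uninduced. The triple genotype had 6.70, 2.98 and 5.72% against 7.21 and 3.77%. These 4 genotypes also overlapped between induced and uninduced libraries.

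**Figure D1:**
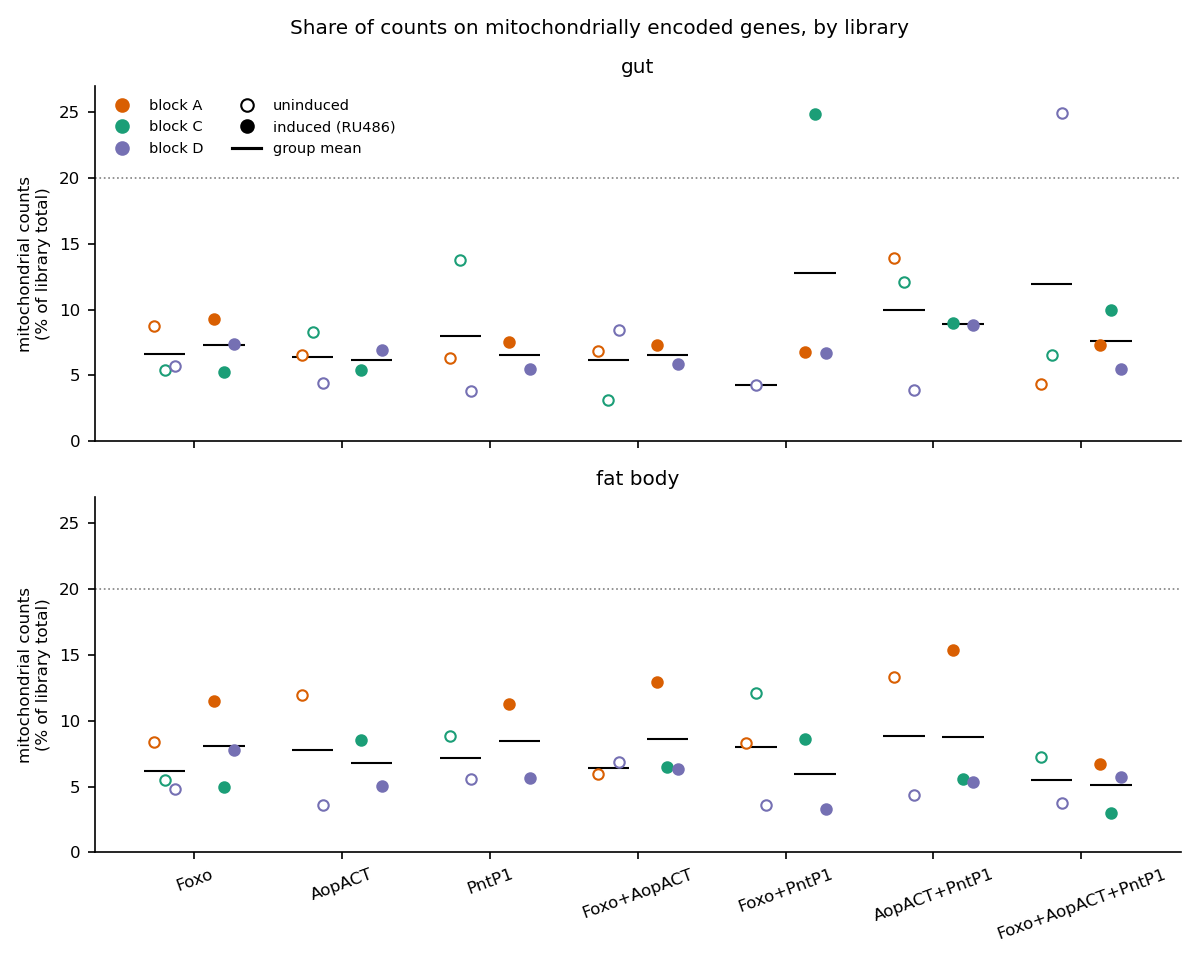
Share of counts on mitochondrially encoded genes (percent of the library total) in each gut (top) and fat body (bottom) library by genotype, coloured by experimental block, with open symbols for uninduced and filled symbols for induced libraries and bars for group means. A pair of gut libraries lies above the dotted line at 20%, and in fat bodies block D lies low in most groups, with a median of 5.19% beside 11.4% in block A.

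Induction did not move the share beyond the spread between libraries in either tissue, in a test that left the block out. Block differences, given below, are therefore part of that spread. The mean difference over genotypes on the log2 scale was 0.18 in guts (17 induced, 19 uninduced libraries; permutation test within genotype, two-sided, p = 0.506), with 4 of 7 genotypes higher when induced. It was 0.05 in fat bodies (18 and 16 libraries; permutation test, p = 0.824), with 5 of 7 genotypes higher. Within blocks A, C and D the differences were 0.30, -0.12 and 0.10 in guts and 0.60, -0.64 and 0.26 in fat bodies, so that block C went the other way from blocks A and D. Of the genotypes with both arms in a block, 4 of 4, 1 of 4 and 5 of 7 were higher when induced in guts. In fat bodies these were 3 of 3, 0 of 3 and 5 of 7, and no test was made within blocks. Without the libraries over 20% the gut difference was 0.20 (permutation test, p = 0.292). Without libraries 02 and 05 it was 0.26 in guts (permutation test, p = 0.434) and, without 02, 0.09 in fat bodies (permutation test, p = 0.717). Without the library labelled Foxo+PntP1 uninduced replicate 1 it was 0.07 in fat bodies (permutation test, p = 0.784). For single genotypes, exact permutation tests gave p between 0.5 and 1.0 in guts and between 0.6 and 1.0 in fat bodies, and each was 1.0 after adjustment over the 14 tests, although the group sizes allow no p under 0.1.

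In both tissues most mitochondrial counts came from rRNA and complex IV mRNA. Ribosomal RNA made up a median of 42.7% of mitochondrial counts in guts (range 34.6 to 60.3%) and 39.5% in fat bodies (31.3 to 51.4%). Complex IV mRNAs made up 39.2% (22.8 to 51.3%) and 40.4% (21.7 to 50.7%, or 25.5 to 50.7% without the fat body library labelled Foxo+PntP1 uninduced replicate 1). All other classes were small, with medians in guts and fat bodies of 5.53 and 7.41% for complex III, 4.71 and 6.30% for complex I, 3.28 and 3.77% for ATP synthase, and 3.06 and 3.06% for tRNAs.

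The rRNA of the large mitochondrial ribosomal subunit, lrRNA (FBgn0013686, minus strand, positions 12735 to 14058 of the mitochondrial genome in release 6), was the most abundant member in CPM. Its level lay between 11769 and 149897 CPM in guts (median 32743) and between 11676 and 71605 CPM in fat bodies (median 24904), and its median rank among all genes of a library was 1.5 and 4. The small-subunit rRNA, srRNA (FBgn0013688, minus strand, 14131 to 14916), which lies next to lrRNA on the map with only a tRNA between them, had medians of 24.1 CPM in guts (3.40 to 283) and 15.4 CPM in fat bodies (3.20 to 72.5). Counts of srRNA were thus 0.0842% of those of lrRNA at the median in guts (0.0186 to 0.401%) and 0.0556% in fat bodies (0.0216 to 0.134%), although mitochondrial ribosomes hold the 2 RNAs in equal number. The rRNA share described above was therefore almost entirely lrRNA.

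The complex IV mRNAs, which encode the catalytic core that passes electrons to oxygen, followed. CoI (FBgn0013674, plus strand, 1474 to 3009) had medians of 12434 CPM in guts (7654 to 28110) and 12150 CPM in fat bodies (5637 to 25047). CoIII (FBgn0013676, plus strand, 4736 to 5524) had 11701 CPM (7685 to 36672) and 10799 CPM (5438 to 22608). CoII (plus strand, 3083 to 3767), which lies between them, was at 1092 CPM (536 to 5344) and 1085 CPM (437 to 2623). CoIII counts stayed close to those of CoI, at 97.7% in guts (79.0 to 139%) and 90.0% in fat bodies (75.8 to 115%, or to 105% without the library labelled Foxo+PntP1 uninduced replicate 1), whereas CoII counts were 9.21% (7.00 to 20.2%) and 8.47% (6.45 to 17.8%) of CoI.

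Cyt-b, the only mitochondrially encoded subunit of complex III (plus strand, 10499 to 11635), had medians of 3679 CPM in guts (1641 to 9730) and 4226 CPM in fat bodies (1005 to 10227). The ATP synthase subunit gene ATPase6 (plus strand, 4062 to 4736) had 1884 CPM (559 to 8393) and 2500 CPM (1149 to 11597). ATPase8 (FBgn0013673, plus strand, 3907 to 4068), which overlaps ATPase6 by 7 bases, had 274 CPM (20.6 to 2501) and 163 CPM (36.1 to 2614). In mammals the overlapping pair is translated from a shared mRNA. The ratio of ATPase8 to ATPase6 counts nevertheless ranged from 1.81 to 41.8% in guts (median 13.6%) and from 2.66 to 40.0% in fat bodies (5.73%), and reads across the overlap cannot be assigned to either gene with certainty.

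The 7 complex I mRNAs encode membrane subunits of NADH dehydrogenase and spanned a wide range. ND1 (1454 CPM at the median in guts, 2158 in fat bodies), ND5 (1031 and 1254 CPM) and ND4 (568 and 811 CPM) were the most abundant. ND3 had 42.8 and 56.8 CPM and ND2 (FBgn0013680, plus strand, 240 to 1263) had 29.0 CPM (1.77 to 607) and 24.5 CPM (2.65 to 689). ND4L (4.69 and 3.21 CPM) and ND6 (4.05 and 4.37 CPM) were the lowest mRNAs. ND6 had no count in 2 gut libraries, where 0 counts allow up to 1.33 CPM (a limit of 3 counts). ND4L, which overlaps ND4 by 1 base on the same strand, had 0.955% of the ND4 counts in guts (0.0722 to 8.40%) and 0.402% in fat bodies (0.0518 to 7.56%).

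Among the tRNAs, Leu-TAG, Gly-TCC and Ser-TGA had the highest mean levels in both tissues. Leu-TAG (minus strand, 12670 to 12734), which abuts lrRNA with no gap on the same strand, had medians of 1839 CPM in guts (118 to 17168) and 1683 CPM in fat bodies (461 to 11896). Gly-TCC had 102 and 143 CPM, and Ser-TGA had 36.0 and 47.8 CPM. The lowest mean was 0.440 CPM for Ser-GCT in guts and 0.655 CPM for Met-CAT in fat bodies. The sources used here do not say how reads that reach from a precursor or a neighbour into a tRNA were counted. Leu-TAG counts therefore cannot be told apart with certainty from those of lrRNA. They equalled 6.24% of the lrRNA counts in guts (1.01 to 14.6%) and 6.65% in fat bodies (2.74 to 27.9%). The highest fat body level and the 27.9% came from the library labelled Foxo+PntP1 uninduced replicate 1, and without it the ranges ended at 8640 CPM and 14.1%.

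Compared per length, in CPM per kb of gene, tRNA Leu-TAG had the highest median (28292 in guts, 25896 in fat bodies). Its 65 bases abut lrRNA, however, and its counts cannot be told apart with certainty from those of lrRNA. Among mRNAs and rRNAs, with the other tRNAs left aside, the order was lrRNA (24731 and 18809), CoIII (14830 and 13686) and CoI (8095 and 7910). Next came Cyt-b (3236 and 3716 CPM per kb) and ATPase6 (2791 and 3704). CoII (1594 and 1584), ATPase8 (1688 and 1009) and ND1 (1549 and 2298) lay close together, with library ranges that overlapped widely. At the low end among mRNAs and rRNAs stood srRNA (30.6 and 19.6 CPM per kb), ND2 (28.4 and 23.9), ND4L (16.1 and 11.0) and ND6 (7.72 and 8.33), again with overlapping ranges.

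**Figure D2:**
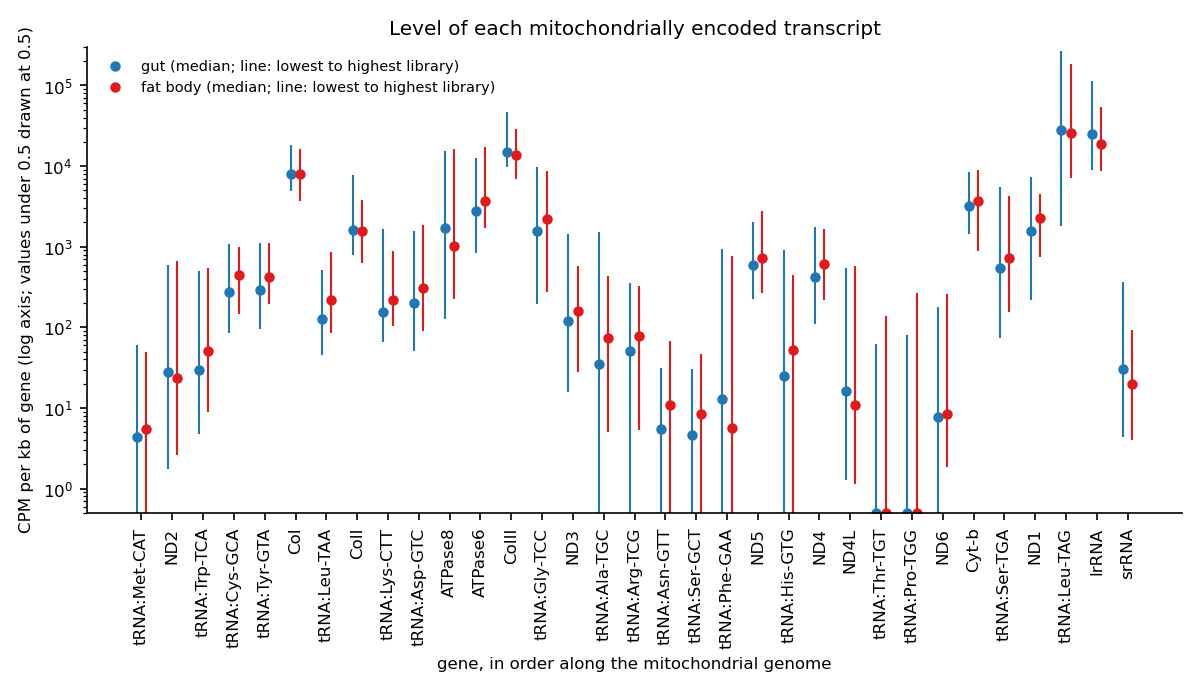
Level of the mitochondrially encoded transcripts in CPM per kb of gene (log axis, values under 0.5 drawn at 0.5) in order along the mitochondrial genome, as medians with lines from the lowest to the highest library, for 36 gut (blue) and 34 fat body (red) libraries. CoI and CoIII are high with short lines, lrRNA and tRNA Leu-TAG are high with longer lines, and srRNA, ND2, ND4L and ND6 are low with long lines.

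Among mRNAs and rRNAs, abundant mRNAs varied least between libraries. The standard deviation of log2(CPM + 1) over all libraries was 0.46 in guts and 0.49 in fat bodies for CoI, 0.47 and 0.49 for CoIII, and 0.61 and 0.70 for Cyt-b. It was 0.83 and 0.77 for lrRNA and 1.40 and 1.20 for srRNA. With tRNAs left aside, values were largest for ATPase8 (1.99 and 1.65), ND2 (1.93 and 1.87), ND6 (1.81 and 1.57) and ND4L (1.79 and 1.74), which therefore spanned a far wider range than CoI in the same libraries.

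The pair of gut libraries over 20% were high in nearly all members, but unequally. The following ratios are CPM in the induced Foxo+PntP1 library and in the uninduced triple genotype library, in that order, divided by the median of the other 34 gut libraries, and since the share chose these libraries they are a description without a test. For lrRNA the ratios were 4.69 and 4.15, for CoI 2.28 and 2.14, for CoIII 2.14 and 3.17, and for Cyt-b 1.78 and 2.25. Larger ratios were found for CoII (3.57 and 4.97), ATPase6 (4.04 and 4.55), ND1 (2.91 and 4.80) and ND3 (5.11 and 12.1), and for ND4L (40.2 and 12.3), ND6 (22.6 and 24.8) and ND2 (21.0 and 9.89). ATPase8 stood at 9.65 and 2.84, and tRNA Leu-TAG at 7.79 and 9.95. Of the 33 members, 24 and 20 were above all other gut libraries, while Cyt-b, ND6 and srRNA were above them in neither library. Ribosomal RNA made up 60.3 and 53.4% of their mitochondrial counts and complex IV mRNAs 22.8 and 27.5%, and mRNA alone took 8.41 and 9.75% of all counts, beside a median of 3.45% over the 36 guts.

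Several other measures of these 2 libraries lay at or near an edge of the tissue. Nuclear-encoded mitochondrial ribosomal protein genes took 0.312 and 0.303% of nuclear counts, the 2 highest values of 36 (median 0.219%), and nuclear-encoded respiratory chain genes took 2.33 and 2.75% (range 1.45 to 2.75%, median 1.96%). The summed share of the gut markers was 0.241 and 0.923% of nuclear counts (median of all guts 1.93%), the former being the lowest of the tissue. Muscle markers were at 0.465 and 0.239%, the former being the highest. Genes with a count numbered 9779 and 9775, within the range of 9645 to 10227. The part of these differences in the high shares was not tested.

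For single transcripts, no member was called in any of the 18 induction contrasts (7 genotypes, the mean over genotypes and the difference between genotypes with and without PntP1, in each tissue) at an edgeR adjusted p under 0.1. Of the 33 members, 31 passed the filter on low counts in guts and 30 in fat bodies. Beside these counts of 0, the share of all tested genes called in guts was 0.507% for Foxo, 0.291% for AopACT, 3.04% for PntP1, 2.13% for Foxo+AopACT, 2.79% for Foxo+PntP1, 0.787% for AopACT+PntP1, 1.64% for the triple genotype, 11.1% for the mean over genotypes and 4.25% for the PntP1 difference. In fat bodies these shares were 0.0, 0.411, 0.0103, 0.0308, 0.0, 0.123, 0.0103, 0.277 and 0.452% in the same order, so that few genes of any kind were called there. At an unadjusted edgeR p under 0.05 there were 5 members in the triple genotype, 1 in the mean and 1 in the PntP1 difference in guts, and 1 for Foxo+AopACT and 2 for AopACT+PntP1 in fat bodies, with 0 in the other contrasts. DESeq2 called 2 members in the triple genotype guts, 1 in AopACT+PntP1 fat bodies and 0 elsewhere.

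Induced and uninduced levels overlapped over nearly their whole range. CoI in guts lay between 8023 and 28110 CPM when induced (median 12607) and between 7654 and 26421 CPM when uninduced (median 12279). Its mean induction difference on the log2 scale was -0.19 ± 0.20 (SE) in guts and 0.02 ± 0.14 in fat bodies (edgeR adjusted p = 0.704 and 1.0). For lrRNA the difference was -0.10 ± 0.32 in guts (induced 19019 to 149897 CPM, median 36260; uninduced 11769 to 132755 CPM, median 27282) and 0.01 ± 0.20 in fat bodies (edgeR adjusted p = 0.924 and 1.0). Cyt-b differed by -0.37 ± 0.21 in guts (edgeR adjusted p = 0.370) and ND2 by -0.77 ± 0.42 in fat bodies (edgeR adjusted p = 1.0). None of these passed the test, and each difference was below 2 times its SE.

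Fitted differences of the members nevertheless leaned 1 way within several genotypes, and in 2 gut genotypes the direction rested on the libraries over 20%. In PntP1 guts the median log2 difference was -1.33 with 0 of 31 members positive, against -0.02 over all genes tested. The members are read from the same libraries, so their signs are not independent. Within shared blocks the PntP1 gut share was higher when induced. It was 7.55% against 6.30% uninduced in block A, and 5.49% against 3.84% in block D. The uninduced library of 13.7% was from block C, which held no induced PntP1 gut. Foxo guts had a median of 0.48 (28 positive), AopACT guts -0.46 (4), Foxo+AopACT guts -0.33 (8) and AopACT+PntP1 guts -0.49 (2). Foxo+PntP1 guts, with 1 uninduced library, had 1.68 (29 positive) and guts of the triple genotype had -1.19 (1 positive). Without the libraries over 20% the last 2 became -0.11 (9 of 30 positive) and 1.13 (25 of 30), so both changed sign, while PntP1 guts stayed at -1.29 (0 of 30). Over the 7 genotypes the gut median was -0.35 (2 of 31 positive), and -0.19 (8 of 30) without those libraries. The sign of that median is opposite to that of the share (0.18), which is weighted towards the abundant members. The share was also computed on library totals, without the TMM scaling and the block of the fit. The part of each in the opposite sign was not tested.

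In fat bodies, the median log2 difference was -0.01 for Foxo (14 of 30 positive), -0.39 for AopACT (6), -0.64 for PntP1 (1) and 0.50 for Foxo+AopACT (26). It was -0.05 for Foxo+PntP1 (13), 0.38 for AopACT+PntP1 (22), -0.63 for the triple genotype (3) and -0.01 for the mean over genotypes (15). Without the library labelled Foxo+PntP1 uninduced replicate 1, the Foxo+PntP1 median was -0.19 (7 positive). Medians of all genes tested lay between -0.10 and 0.05 in the per-genotype and mean contrasts of both tissues.

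**Figure D3:**
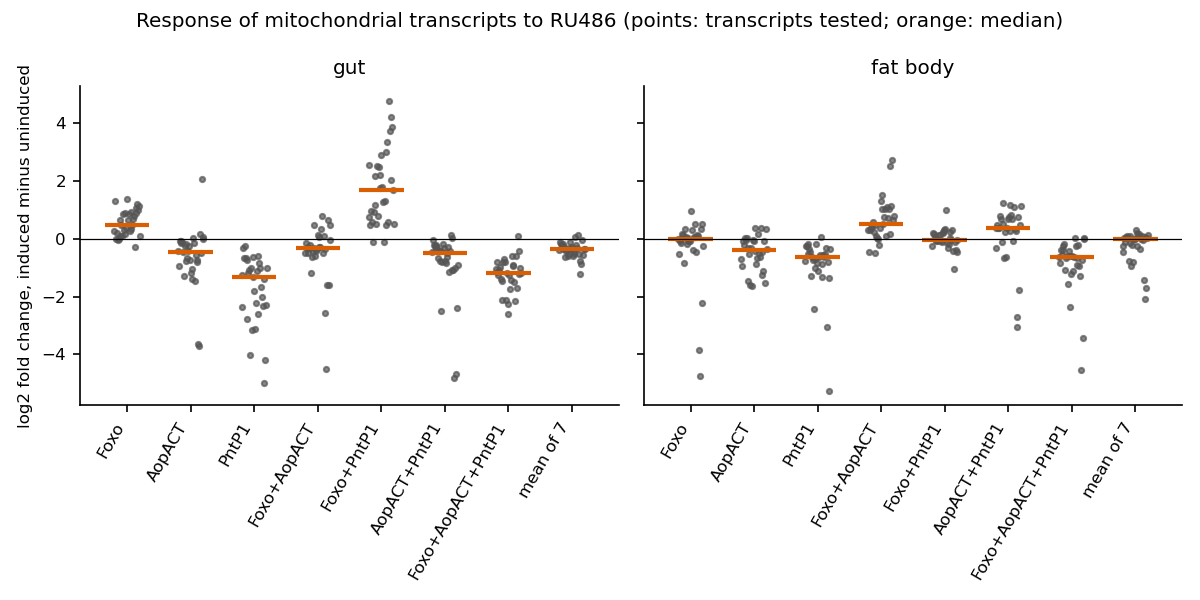
Fitted log2 fold change (induced minus uninduced, edgeR) of the mitochondrially encoded transcripts tested, by genotype and for the mean of 7, in 31 gut (left) and 30 fat body (right) transcripts, with orange bars for medians. No point passed an adjusted p under 0.1, and the gut medians run from -1.33 for PntP1 to 1.68 for Foxo+PntP1, which has 1 uninduced library.

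The tRNA genes named next fall outside the rule for named genes and were chosen after their values were seen, because an alternative called them. Guts of the triple genotype had 13.7, 20.5 and 14.6 CPM of tRNA Cys-GCA when induced and 14.8, 25.2 and 67.0 CPM when uninduced, and 7.62, 22.7 and 8.03 CPM of tRNA Lys-CTT against 8.52, 14.0 and 117 CPM. In both the high uninduced value came from the library over 20%, and the groups otherwise overlapped. The log2 differences were -1.43 and -2.17 (edgeR adjusted p = 0.189 and 0.277). They passed without uninduced replicate 1 of that genotype (-1.79 and -2.76, edgeR adjusted p = 0.0483 and 0.0664) and with DESeq2 (-1.44 and -2.21, DESeq2 adjusted p = 0.0626 and 0.0770). In AopACT+PntP1 fat bodies tRNA Tyr-GTA had 65.5, 30.4 and 36.5 CPM when induced and 40.5 and 16.0 CPM when uninduced, a log2 difference of 1.12 (edgeR adjusted p = 0.156; DESeq2 1.17, adjusted p = 0.0702).

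Genotypes did not differ detectably in their response or before induction. In the genotype by induction interaction 0 of 31 gut and 0 of 30 fat body members were called (0 and 0 at an unadjusted edgeR p under 0.05, and 0 by DESeq2), beside 2.45% and 0.113% of all genes tested. Among the 7 uninduced genotypes 0 members were called in either tissue (2 and 1 at an unadjusted edgeR p under 0.05, 0 by DESeq2), beside 1.28% and 0.0616% of all genes.

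Nuclear genes for mitochondrial proteins showed small changes over the same contrast. Of 72 nuclear-encoded respiratory chain genes tested in guts, 3 fell in the mean over genotypes and 0 rose (4.17% called beside 11.1% of all genes, median log2 difference -0.15): COX7B (complex IV; 331 ± 53.8 CPM induced, 377 ± 91.0 CPM uninduced, SD, n = 17 and 19; log2 -0.43, edgeR adjusted p = 0.0239), SdhC (complex II; -0.28, 0.0824) and ATPsynbeta (ATP synthase; -0.39, 0.0909). COX7C had -0.29 (edgeR adjusted p = 0.187). Mean levels, taken outside the fit, were 151 CPM induced and 153 CPM uninduced for SdhC. For ATPsynbeta they were 2165 and 2448 CPM. The part of scaling in these fitted differences was not tested. Of 29 mitochondrial expression and maintenance factors 2 fell (6.9% called), CG31643 (-0.50, edgeR adjusted p = 0.00597) and mTerf3, a mitochondrial transcription termination factor relative (-0.42, 0.0833), while scu and mtTFB1 had 0.34 and 0.23 without passing. Of 74 mitochondrial ribosomal protein genes 0 passed, the lowest p being those of mRpS24 (-0.27), mRpL48 (0.28), mRpL20 (-0.25) and mRpS35 (0.27). Over the same contrast 3 of the 6 gut marker genes fell, with a median of -0.85, and their part in these differences was not tested.

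In fat bodies 0 of 71 respiratory chain genes, 0 of 74 mitochondrial ribosomal protein genes and 0 of 28 expression factors passed in the mean over genotypes. The lowest p values belonged to ND-B8 (-0.96), COX5B (-0.25), COX7C (-0.24) and ND-AGGG (-0.32) among respiratory chain genes, all with an edgeR adjusted p of 1.0. In the ribosomal protein list they belonged to mRpL23 (-0.23), mRpS21 (-0.31), mRpL37 (-0.18) and mRpS18B (0.21), and among expression factors to mEFTs (0.18), EndoG (-0.20), mtTFB1 (0.13) and PolG2 (0.14). In Foxo+AopACT guts 5 of 72 respiratory chain genes were lower (6.94% called beside 2.13% of all genes, median -0.78), where the mitochondrially encoded members had a median of -0.33.

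Between tissues, few mitochondrially encoded transcripts passed the test, whereas most nuclear-encoded respiratory chain genes did, as did most genes of any kind. The log2 share in guts minus fat bodies was 0.07 on average over the 14 groups (36 and 34 libraries; permutation test, two-sided, p = 0.682), with 6 of 14 groups higher in guts, and -0.27, 0.48 and 0.36 within blocks A, C and D. It was -0.03 without the libraries over 20%. In uninduced libraries, 4 of 32 members passed and all 4 were higher in guts (19 libraries) than in fat bodies (16), beside 74.7% of all 9610 genes called (32.5% higher, 42.1% lower), and only 2 of the 4 had an unadjusted edgeR p under 0.05. The members' median log2 difference was 0.13, against -0.14 over all genes, and 21 of 32 were positive.

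Of these 4, CoIII had 7685 to 36672 CPM in uninduced guts (median 11036) and 7084 to 19917 CPM in uninduced fat bodies (median 10120), a log2 difference of 0.57 ± 0.22 (edgeR adjusted p = 0.0232). For srRNA the values were 3.40 to 283 CPM (median 24.7) and 3.70 to 61.5 CPM (13.5), with 1.31 ± 0.53 (edgeR adjusted p = 0.0280). CoI had 0.41 ± 0.21 (edgeR adjusted p = 0.0758) and lrRNA 0.66 ± 0.35 (edgeR adjusted p = 0.0966). The ranges overlapped for all 4, and the count was 2 without AopACT+PntP1 uninduced replicate 2, Foxo+AopACT+PntP1 uninduced replicate 1 or PntP1 uninduced replicate 2 of the fat body. By contrast 65 of 73 nuclear-encoded respiratory chain genes passed (63 higher in guts, median log2 difference 0.73), as did 56 of 74 mitochondrial ribosomal protein genes (all 56 higher, median 0.45) and 13 of 29 expression factors (8 higher, 5 lower, median 0.08). These counts stand beside 74.7% of all genes called, with 32.5% higher and 42.1% lower. Whether the lists differ from one another was not tested.

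The experimental block was compared after the data had been seen. In fat bodies 50.6% of the within-group variance of the log2 share lay between blocks (34 libraries; permutation test within group, p = 0.00116), and leaving out each library in turn gave 43.6 to 56.4%, with 50.8% without the library labelled Foxo+PntP1 uninduced replicate 1 (permutation test, p = 0.0015) and 48.5% without library 02 (p = 0.00221). Shares in block A lay between 5.98 and 15.4% (median 11.4%, n = 10), in block C between 2.98 and 12.1% (median 6.83%, n = 10) and in block D between 3.29 and 7.76% (median 5.19%, n = 14). The blocks overlapped, yet no block D library reached the median of block A. In guts blocks held 3.55% of that variance (36 libraries; permutation test, p = 0.676). Leaving out each gut library in turn gave 0.971 to 15.3% (permutation test, p = 0.173 to 0.905). The difference between tissues in this measure was not tested.

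By transcript, 18 of 30 fat body members were higher in block A than in block D and 0 were lower (edgeR adjusted p under 0.1), beside 3.51% of all genes called (1.55% higher). All 30 tested members had a positive difference, with a median of 1.30 against 0.00 over all genes. Leaving out each library in turn gave 6 to 24 called members and medians of 1.19 to 1.47, the count being 6 without either AopACT+PntP1 uninduced library, 7 without PntP1 induced replicate 1, PntP1 induced replicate 3 or AopACT+PntP1 induced replicate 1, 8 without Foxo+AopACT induced replicate 1, 10 without AopACT uninduced replicate 1, and 11 without AopACT uninduced replicate 2, Foxo induced replicate 1 or Foxo+PntP1 uninduced replicate 3. The count was 23 without the library labelled Foxo+PntP1 uninduced replicate 1 and 26 of 33 with DESeq2. Over the 3 blocks together 13 of 30 members differed (background 0.842%), with 3 to 21 when each library was left out.

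Both rRNAs were higher in block A than in block D. For lrRNA, block A had 19768 to 71605 CPM (median 50159), block C 12810 to 49742 CPM (30675) and block D 11676 to 30428 CPM (18818), and the log2 difference between A and D was 1.21 ± 0.24 (edgeR adjusted p = 0.0234). For srRNA the ranges were 13.7 to 72.5 CPM (median 42.1), 3.20 to 55.4 CPM (18.4) and 3.70 to 17.2 CPM (7.73), with 2.12 ± 0.39 (edgeR adjusted p = 0.0158). Block C lay between the others for both.

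Of the 13 mRNAs, 9 were higher in block A than in block D. Both ATP synthase mRNAs were higher, ATPase6 from a median of 1488 CPM in block D (1149 to 2507) to 3179 CPM in block A (2466 to 5926), a log2 difference of 0.98 (edgeR adjusted p = 0.0447), and ATPase8 by 1.57 (0.0658). Complex I mRNAs passed in 6 of 7 cases, with 1.34 for ND3, 1.19 for ND5, 1.06 for ND4, 0.80 for ND1, 1.99 for ND6 and 1.79 for ND2 (edgeR adjusted p between 0.0286 and 0.0931), and ND4L had 1.96 (0.162). In complex IV only CoII passed (0.79, edgeR adjusted p = 0.0658), while CoI had 0.51 (0.145) and CoIII 0.46 (0.165). CoI had 7827 to 25047 CPM in block A (median 18731) and 6971 to 15706 CPM in block D (11227), which overlapped. The 7827 CPM came from the library labelled Foxo+PntP1 uninduced replicate 1, and block A began at 12939 CPM without it. The complex III mRNA Cyt-b had 0.66 (edgeR adjusted p = 0.156). Of 15 tRNAs tested 7 passed, Arg-TCG having the lowest p (2.35 ± 0.39, edgeR adjusted p = 0.0113), with Ala-TGC, Lys-CTT, Leu-TAA, Leu-TAG, Trp-TCA and Ser-TGA between 0.95 and 2.48.

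ATPase8 and ND2 were the 2 members called between blocks C and D in fat bodies (background 0.0308% of all genes called, 0.0205% higher; 27 of 30 members positive, median 0.79). Leaving out each library in turn gave 1 to 6 called members, with 6 without Foxo induced replicate 2, 3 without Foxo+AopACT induced replicate 2 or 3 and 1 without Foxo uninduced replicate 2, and DESeq2 called 6. ATPase8 had 111 to 2614 CPM in block C (median 799) and 36.1 to 171 CPM in block D (70.8), beside 143 to 416 CPM in block A (199.9), with a log2 difference of 3.21 (edgeR adjusted p = 0.0133). ND2 had 8.30 to 689 CPM in block C (107), 2.65 to 32.6 CPM in block D (9.24) and 19.1 to 73.2 CPM in block A (28.6), with 3.63 (edgeR adjusted p = 0.0213). The ratio of ATPase8 to ATPase6 counts was 25.2% at the median in block C, 6.81% in block A and 4.14% in block D, and that of ND2 to ND1 was 8.41, 1.09 and 0.587%. Between blocks A and C 0 members were called (15 at an unadjusted edgeR p under 0.05, 2 by DESeq2; background 0.0%).

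In guts the blocks separated 1 of 31 members, ATPase8, both over the 3 blocks (edgeR adjusted p = 0.0700, background 0.701%) and between A and D (2.86 ± 0.66, edgeR adjusted p = 0.0424, background 1.04%). Its gut levels were 172 to 1437 CPM in block A (median 569), 67.4 to 2501 CPM in block C (574) and 20.6 to 735 CPM in block D (66.6), so the blocks overlapped. The call over the 3 blocks was lost in 18 of 36 fits that left out a library (edgeR adjusted p = 0.104 to 0.163) and without libraries 02 and 05 (0.126). The ratio of ATPase8 to ATPase6 counts was 31.2, 16.6 and 3.54% at the median of blocks A, C and D. The call between A and D was lost without Foxo+AopACT uninduced replicate 1, PntP1 induced replicate 1 or PntP1 induced replicate 2, and 5 members passed it without the libraries over 20%. Between blocks C and D 0 members were called in guts (6 at an unadjusted edgeR p under 0.05, 2 by DESeq2), beside 0.119% of all genes (0.0324% higher, 0.0863% lower), and between A and C 0 members (2 at an unadjusted edgeR p under 0.05, 0 by DESeq2), beside 0.0108%.

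**Figure D4:**
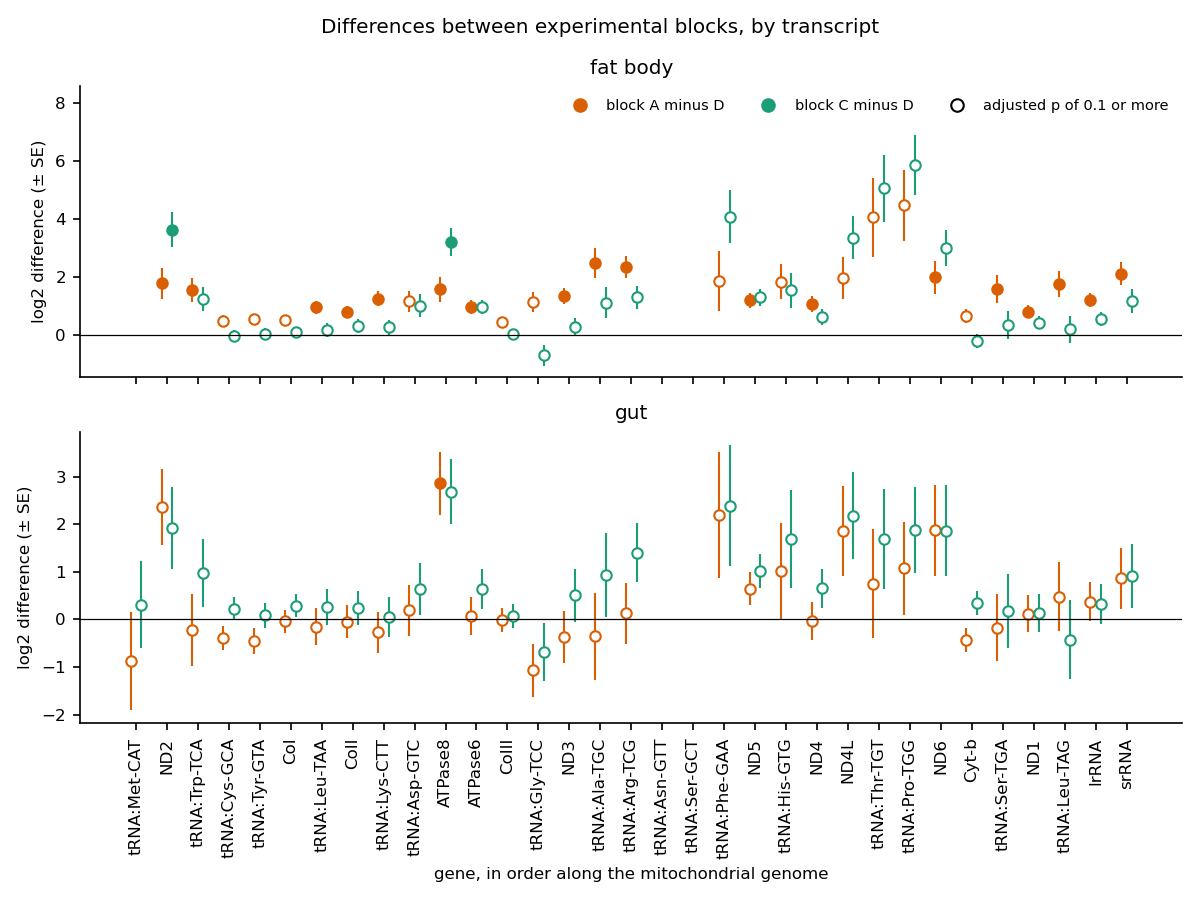
Fitted log2 difference between experimental blocks (edgeR, ± SE) for mitochondrially encoded transcripts in order along the mitochondrial genome, block A minus D in orange and block C minus D in green, filled at an adjusted p under 0.1, for fat bodies (top) and guts (bottom). In fat bodies the 30 orange points all lie above 0 with 18 filled, whereas in guts ATPase8 alone is filled.

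No nuclear gene of the 3 mitochondrial lists was called higher in the same comparison. Between blocks A and D of the fat body 12 of 71 nuclear-encoded respiratory chain genes were lower and 0 higher (median log2 difference -0.35). Of 74 mitochondrial ribosomal protein genes 6 were lower (-0.22), and 0 of 28 expression factors passed (-0.09). Beside these counts, 1.96% of all genes tested were called lower. Of markers of other cell types, 0 of 7 fat body genes (median -0.60), 0 of 14 muscle genes (-0.31), 0 of 8 ovary genes (0.21) and 0 of 6 gut genes passed. Block medians for A, C and D were 10.1, 7.94 and 10.8% of nuclear counts for fat body markers, 0.441, 0.447 and 0.489% for muscle markers and 0.132, 0.111 and 0.215% for ovary markers. Total counts had medians of 2309970, 2727446.5 and 3010563, and the part of depth or tissue make-up in the block difference was not tested.

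**Figure D5:**
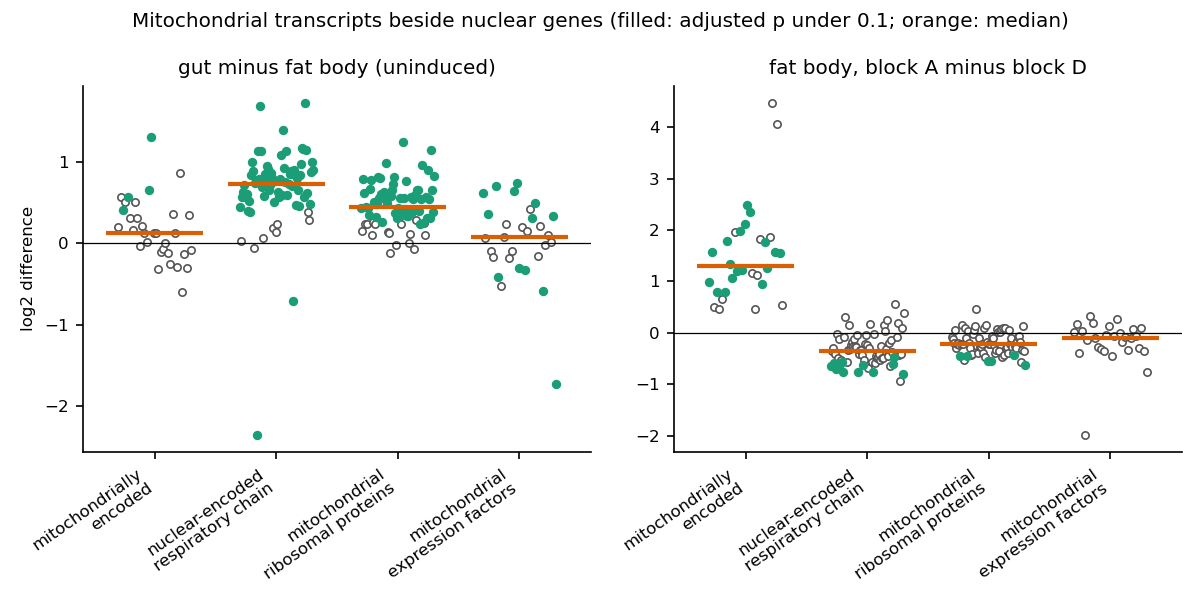
Fitted log2 differences (edgeR) of mitochondrially encoded transcripts beside nuclear genes for the respiratory chain, mitochondrial ribosomal proteins and mitochondrial expression factors, for uninduced gut minus fat body (left) and for fat body block A minus block D (right), filled at an adjusted p under 0.1 with orange bars for medians. In the left panel 63 respiratory chain genes are called higher beside 4 encoded in the mitochondrion (32.5% of all genes tested), and in the right panel the mitochondrially encoded median is 1.30 where the nuclear medians lie between -0.35 and -0.09.

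Of 9 correlations computed with the share, that with the nuclear-encoded respiratory chain share in guts had an adjusted p under 0.05 for both r and rho, and the next lowest adjusted p was 0.0859. Over 36 guts Pearson's r was 0.49 (permutation p = 0.00259, adjusted 0.0233) and Spearman's rho 0.46 (permutation p = 0.00482, adjusted 0.0434), and r was 0.35 without the 2 libraries farthest from the median. Without the libraries over 20% r was 0.27 (permutation p = 0.125) and rho 0.37 (permutation p = 0.0347), so the relation rested in part on those libraries. Within gut blocks A, C and D r was -0.22, 0.50 and 0.67 and rho 0.15, 0.60 and 0.60. Block D had a permutation p of 0.00104 for r and 0.0282 for rho, not adjusted. In block A r was 0.35 without the 2 farthest libraries, so its sign rested on them. In fat bodies r was -0.04 and rho 0.13 (permutation p = 0.807 and 0.475), with rho 0.17 without the library labelled Foxo+PntP1 uninduced replicate 1. Within fat body blocks A, C and D r was -0.12, 0.28 and 0.72, and block D had a permutation p of 0.00409 (rho 0.74, permutation p = 0.00379), not adjusted.

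Libraries with a higher total count had a lower share by rank, with an adjusted p above 0.05. Spearman's coefficient was -0.34 in guts (r = -0.16, permutation p = 0.0428 for rho and 0.278 for r, rho adjusted 0.129; r = -0.41 without the 2 farthest libraries) and -0.40 in fat bodies (r = -0.14, permutation p = 0.0191 and 0.450, rho adjusted 0.0859; r = -0.60 without the 2 farthest). It was -0.39 in fat bodies without the library labelled Foxo+PntP1 uninduced replicate 1. Within fat body blocks A, C and D rho was -0.09, -0.27 and -0.59 and r -0.08, -0.46 and -0.68 (permutation p = 0.00671 for r in block D). Within gut blocks rho was -0.29, -0.19 and -0.21 and r -0.70, -0.03 and -0.45 (permutation p = 0.0232 for r in block A). Without the 2 farthest libraries r in gut block A was 0.27, so its sign rested on them. Over the 29 library numbers with the same group in both tissues, gut and fat body shares had r = 0.17 (permutation p = 0.399) and rho = 0.35 (permutation p = 0.0592, adjusted 0.133), with r = 0.47 without the 2 farthest, which are the libraries over 20%. Over all libraries of a tissue, muscle marker and expression factor shares gave permutation p above 0.1. Within blocks, expression factors had r = -0.77 and rho = -0.82 in fat body block A (permutation p = 0.00381 and 0.00542), and muscle markers had r = 0.79 and rho = 0.29 in gut block C (permutation p = 0.0258 and 0.386), not adjusted. Without the 2 farthest libraries r was -0.70 for the former and -0.13 for the latter. In the other blocks the permutation p for both measures was above 0.1.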

How the data were processed

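Poly(A)-selected RNA from 70 of 73 labelled libraries was analysed, and 3 labelled fat body libraries are not analysed here. In the study's methods, reads with a repeated molecular identifier were collapsed with Je, aligned to the fly genome (release 6) with HISAT2 and counted per gene with featureCounts. The deposited values are raw counts per gene from the authors, who had excluded genes without counted transcripts. The strand setting of the counting was not given in the sources used here, and reads of overlapping or abutting mitochondrial genes cannot be told apart. The authors' variance-stabilised tables, made with DESeq2, were not used.

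Groups came from the labels and blocks from the deposited tables. Symbols matched 10287 gut and 10982 fat body identifiers, and coordinates are from the Ensembl annotation of genome release 6. Replicates of a group differed beyond sampling noise in all pairs (31 gut, 26 fat body; lowest chi-square per degree of freedom 9.78 and 8.84).

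The 2 tissues were fitted separately in R 4.3.3 with edgeR 4.0.16 (TMM scaling, filterByExpr, quasi-likelihood F test, 14 groups plus block), leaving 9270 gut and 9734 fat body genes, with Benjamini-Hochberg adjustment over all of them and a call at an adjusted p under 0.1, the study's false discovery rate of 10%. The tissue fit took uninduced libraries with genotype as covariate. CPM scale the counts of a library to a common total. Shares were tested by permutation (100000 resamples, two-sided, SciPy 1.17.1). Intervals and limits from 0 counts cover counting error only. Scripts were tested on simulated data.

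Named were the 13 mRNAs and 2 rRNAs, the 3 tRNAs of highest and the tRNA of lowest mean level per tissue, any called member, up to 4 nuclear genes of lowest p per list in the mean induction contrast, and the nuclear genes most like the share. Members and lists were chosen with earlier results of these data known. Alternatives were DESeq2 1.42.0, RLE scaling, scaling on nuclear genes, no filter, no replicate block, other definitions of the share, and leaving out libraries. The block comparison and the fit that omits the fat body library whose pnt level went against its label were added after the data had been seen.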

Additional observations from a re-analysis of the deposited data

How the results depend on the processing

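Without the 2 rRNA genes, on protein-coding members alone and without the libraries over 20%, the log2 share difference between gut and fat body changed sign from 0.07 to -0.0478, -0.0486 and -0.0264 (permutation p = 0.748, 0.729 and 0.863). With the library number as replicate block, 5 members passed between tissues in place of 4, and the share difference over the 29 pairs was 0.23 (permutation p = 0.122). Without the replicate block of the tissue fits, all induction counts stayed at 0. With DESeq2, 2 members passed in triple genotype guts and 1 in AopACT+PntP1 fat bodies, in place of 0. The gut block count of 1 became 2 without the libraries over 20% and 0 without libraries 02 and 05, to which the labels give different groups in the 2 tissues, so that a label may be wrong. The Spearman coefficient of total count and share became -0.26 in guts without the libraries over 20%, and -0.15 in guts and -0.26 in fat bodies on protein-coding members. The Spearman coefficient of gut and fat body shares became 0.43 (permutation p = 0.0270) without the libraries over 20%. Leaving out each library in turn gave 2 to 6 called members between tissues, 0 to 2 for triple genotype induction and 0 to 1 for mean induction in guts (1 without Foxo+AopACT+PntP1 uninduced replicate 1 or Foxo+PntP1 induced replicate 2, each time tRNA Cys-GCA), 3 to 21 over fat body blocks and 0 to 2 over gut blocks. It gave induction differences of the log2 share of -0.0029 to 0.29 in guts, negative without Foxo+PntP1 uninduced replicate 1, and of -0.0712 to 0.17 in fat bodies, negative without any of 8 libraries. In 220 other comparisons with an alternative, and 1028 that leave out a library, results kept their direction and their side of the threshold or a count within 1.5 times. These include counts that stayed at 0. Calls of single members between tissues or over the 3 blocks, 18 in number, were less stable. For them 223 fits that leave out a library lost the call and 395 kept it, and the losses fell on 13 of the 18. Depth limits the rarest tRNAs, of which Thr-TGT had no count in 23 of 36 gut and 22 of 34 fat body libraries (up to 1.61 and 2.63 CPM by the limit of 3 counts). The causes of these shifts were not tested.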

Other observations

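Nuclear genes whose levels ran most like the mitochondrial share are given as a description, on CPM of nuclear counts so that the share itself does not enter the scale. In guts (36 libraries, 6281 genes averaging 10 CPM or more, median rho 0.12) the highest Spearman's rho were those of RNASEK (0.92; 111 to 1775 CPM, median 183), CG40045 (0.91; 81.2 to 482 CPM, median 134), Maf1 (0.88), a repressor of RNA polymerase III, BckdhB (0.88), a subunit of the mitochondrial branched-chain keto acid dehydrogenase, and Alg-2 (0.87). The lowest were those of PyK, pyruvate kinase (-0.70; 33.7 to 283 CPM, median 136), trbl (-0.70), su(w[a]) (-0.69), sug (-0.68), a zinc finger factor of sugar sensing, and Hexo1 (-0.68).

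In fat bodies (34 libraries, 7238 genes, median rho 0.23) the highest were Cals (0.91; 143 to 520 CPM, median 212), Tsen15 (0.91), a subunit of the tRNA splicing endonuclease, Rnf11 (0.90), CG33521 (0.90) and Syp (0.89). Of the 5 lowest, 4 encode cytosolic ribosomal proteins, RpL13 (-0.91; 461 to 1687 CPM, median 1194), RpS2 (-0.85), sta (-0.81) and RpL18 (-0.76), and the other is ND-30 (-0.78), a nuclear-encoded complex I subunit. The libraries share depth and block, and no test was made on these values.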
